A study of Mus musculus with 24 samples.

Results

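Eosinophils labelled Irf5-/- and given granulocyte-macrophage colony-stimulating factor (GM-CSF) were compared with wild-type eosinophils given GM-CSF. The comparison was chosen by the sample titles and used 6 of the 24 libraries, 3 labelled Irf5-/- and 3 wild type. Both groups were C57BL/6 mouse bone marrow cells that had been grown until day 4 in 100 ng/ml each of FLT3 ligand and stem cell factor, and afterwards in 10 ng/ml interleukin-5 (IL-5). On day 13 dead cells were removed, and both groups were kept overnight in 10 ng/ml IL-5 with 20 ng/ml recombinant mouse GM-CSF. The remaining 18 libraries came from untreated cells labelled Irf5-/-, from cells labelled Csf2ra-/- with GM-CSF or untreated, and from wild-type cells that were untreated or received interleukin-10 (IL-10) with or without GM-CSF. The labels give neither the targeted exons of Irf5 nor the source, age or sex of the mice, and describe triplicate stimulations without saying whether these came from separate animals. The p-values therefore measure the spread between libraries within groups, taken over all 24, which may be technical in part. Y-linked levels, given below, differed between libraries of the same group.

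IRF5 is a transcription factor of the interferon regulatory factor family. In macrophages and dendritic cells it is activated downstream of Toll-like receptors and the adaptor MyD88 and drives genes of inflammatory cytokines such as TNF, IL-6 and IL-12. GM-CSF is a survival and activation factor of eosinophils that signals through a receptor of the alpha chain encoded by Csf2ra and the common beta chain encoded by Csf2rb, with JAK2 and STAT5 downstream. Counts of the targeted gene are the usual check of a knockout label, and they are given here in every library.

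Total counts were 12278558, 12360429 and 13699428 in the libraries labelled Irf5-/- and 16976516, 18295944 and 13802744 in the wild-type ones. Levels are given as CPM, the reads of a gene relative to the library total, after scaling with trimmed means (TMM). The cells carried eosinophil transcripts in both groups. Prg2, which encodes major basic protein, stood between 40173 and 48295 CPM, and Epx, the eosinophil peroxidase gene, between 13513 and 15310 CPM over the 6 libraries. The sums over the neutrophil, monocyte and macrophage, dendritic, mast cell, B, T and erythroid marker lists overlapped between the groups, and monocyte and macrophage markers summed to 2430 to 2580 CPM under the Irf5-/- label and 2460 to 2750 CPM in wild type. Adgre1, which is also on the eosinophil list, had 760 to 944 and 794 to 1018 CPM of these, so the sum is not one of monocytes alone. Col1a1, Col1a2, Col3a1 and Sparc, genes of connective tissue cells, summed to 0.884, 34.1 and 12.9 CPM in replicates 1, 2 and 3 labelled Irf5-/-, against 0.514, 0.274 and 3.84 CPM in wild type, highest in replicates 2 and 3 labelled Irf5-/-. Y-linked genes (4 summed) gave 163, 13.2 and 44.0 CPM under the Irf5-/- label, against 178, 176 and 52.5 CPM in wild type.

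Irf5 itself went against the label. Irf5 (ENSMUSG00000029771, GRCm38 chr6:29526625-29541871, plus strand) stood at 1999, 1584 and 1394 CPM in the libraries labelled Irf5-/- with GM-CSF, against 74.0, 60.8 and 94.3 CPM in wild type with GM-CSF. The groups did not overlap, and the lowest library labelled Irf5-/- was far above the highest wild-type one. The mean was 1659 ± 310 CPM in the libraries labelled Irf5-/- and 76.4 ± 16.9 CPM in wild type (SD, n = 3 each), a log2 fold change of 4.44 ± 0.18 (SE) with a 95% interval of 4.07 to 4.82. The adjusted p was 2.49e-13 with edgeR's quasi-likelihood test and Benjamini-Hochberg adjustment over 11885 genes, which gives every adjusted p below unless another tool is named. The direction is the opposite of what a knockout label would read as, so "labelled Irf5-/-" is used throughout, and each direction below rests on that label. Gene-level counts do not tell which exons the reads came from or whether the transcript could make a functional protein.

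The same split held over the whole series. Irf5 lay between 1394 and 1999 CPM in the 6 libraries labelled Irf5-/- and between 28.3 and 94.3 CPM in the other 18. Untreated cells labelled Irf5-/- had 1577, 1891 and 1569 CPM, against 47.6, 55.4 and 59.6 CPM in untreated wild type. The level in cells labelled Irf5-/- was thus about as high without GM-CSF as with it, at 1679 ± 184 CPM untreated. The lowest mean of the series was in cells labelled Csf2ra-/- with GM-CSF, at 33.7 ± 0.786 CPM (SD, n = 3).

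**Figure D1:**
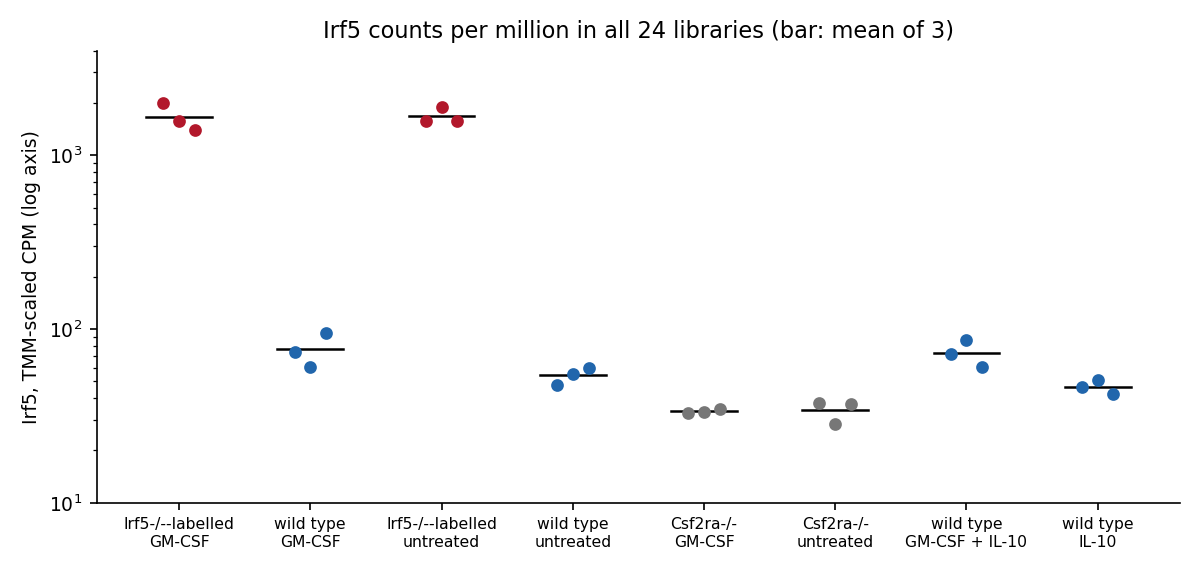
Irf5 in TMM-scaled CPM on a log axis, 1 point per library and a bar at the mean of 3, in the 8 groups of the series. All 6 libraries labelled Irf5-/- lie between 1394 and 1999 CPM, and the other 18 between 28.3 and 94.3 CPM.

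No neighbour of Irf5 was called. Of 81 other annotated genes in the files whose start lies within 5 Mb of the start of Irf5, 33 could be tested, with 0 calls by edgeR or DESeq2 and log2 fold changes from -0.59 to 1.03. At an unadjusted p under 0.05, 2 were higher and 1 was lower, beside 104 higher and 69 lower of all 11885 genes tested. Tnpo3, which encodes a nuclear import receptor, lies on the other strand and overlaps the end of Irf5 by 1045 bp. It had 79.0, 82.3 and 83.7 CPM in the libraries labelled Irf5-/-, against 82.9, 82.0 and 72.6 CPM in wild type. Those groups overlapped, and its log2 fold change was 0.04 with a 95% interval of -0.18 to 0.27. Whether counting used the strand is not given in the sources used here. Reads in the overlap therefore cannot be assigned to one of the genes. Kcp, upstream on chromosome 6, had 4.66, 1.75 and 1.38 CPM in the libraries labelled Irf5-/- and 3.83, 1.64 and 5.35 CPM in wild type.

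With GM-CSF, 4 of 11885 genes were called at an adjusted p under 0.05, all 4 higher in the libraries labelled Irf5-/- and 0 lower, which is 0.0337% of the genes tested. Apart from Irf5 they were the early-response genes Egr1 and Dusp1 and the activation marker gene Cd69. At an unadjusted p under 0.05 there were 173 genes, or 1.46%, of which 104 were higher and 69 lower, and each of the 10 smallest p-values belonged to a higher gene. The 1.46% is below the share of 0.05 that evenly spread p-values would give, so the fit may be cautious for this contrast. Why it is lower was not tested. DESeq2 called 8 genes, these 4 and Plk3, Fosb, Osm and Hist1h1c, also higher, and limma-voom called 3, all but Cd69. The count was 2 (Irf5 and Egr1) in a fit of the groups compared alone, without replicate 2 labelled Irf5-/-, without wild-type replicate 1 and without wild-type replicate 3.

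Egr1, an immediate early zinc finger transcription factor induced by growth factor and stress signalling, had the largest difference after Irf5 among the called genes. Egr1 (ENSMUSG00000038418, GRCm38 chromosome 18, 34859823 to 34864984, plus strand) stood at 435, 503 and 414 CPM in the libraries labelled Irf5-/-, against 67.3, 110 and 118 CPM in wild type. The groups did not overlap, and the 3 libraries labelled Irf5-/- lay close together. The log2 fold change was 2.20 ± 0.22 (adjusted p = 1.07e-05), with a 95% interval of 1.74 to 2.66. Irf5 and Egr1 were called in each of the 15 alternatives tried, in which the Egr1 log2 fold change ranged from 1.99 to 2.35. Replicate 1 labelled Irf5-/-, with a collagen sum close to wild type and the highest Y-linked sum of its group (163 CPM), had 435 CPM of Egr1. It is 1 library that differed from replicates 2 and 3 in both sums, and the part of each was not tested apart.

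Dusp1, a phosphatase that switches off MAP kinases, followed. Dusp1 (ENSMUSG00000024190, GRCm38 chromosome 17, 26505590 to 26562128, minus strand) stood at 69.7, 93.5 and 79.8 CPM in the libraries labelled Irf5-/-, against 26.1, 43.5 and 33.6 CPM in wild type. The lowest value labelled Irf5-/- was above the highest wild-type value. The log2 fold change was 1.23 ± 0.19 (adjusted p = 0.00526). The call was lost without replicate 2 labelled Irf5-/- (adjusted p = 0.0904), without wild-type replicate 1 (0.117) and without wild-type replicate 3 (0.0753).

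Cd69, which encodes a lectin-like surface protein that appears early on activated leukocytes, was the fourth. Cd69 (ENSMUSG00000030156, GRCm38 chromosome 6, 129267325 to 129275436, minus strand) stood at 28.8, 45.4 and 41.6 CPM in the libraries labelled Irf5-/-, against 19.8, 22.4 and 16.4 CPM in wild type. The groups did not overlap, with replicate 1 labelled Irf5-/- lowest in its group. The log2 fold change was 0.98 ± 0.18 (adjusted p = 0.0392). The call was kept in the leave-one-out fit without replicate 1 labelled Irf5-/- (adjusted p = 0.00485) and lost in the other 5, with adjusted p-values of 0.0625 without wild-type replicate 2, 0.242 without replicate 3 labelled Irf5-/-, 0.307 and 0.369 without wild-type replicates 1 and 3 and 0.634 without replicate 2 labelled Irf5-/-. With the summed collagen level as a covariate, Irf5, Egr1 and Dusp1 were called and Cd69 was not (adjusted p = 0.298).

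**Figure D2:**
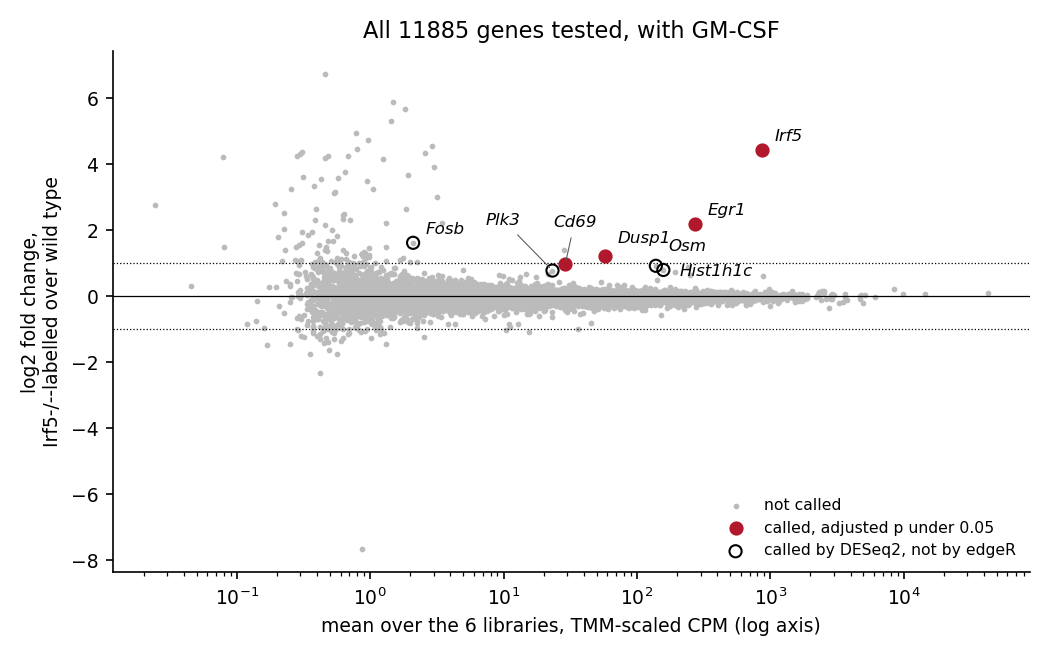
Log2 fold change of the libraries labelled Irf5-/- over wild type, both with GM-CSF, against the mean level in TMM-scaled CPM on a log axis, 1 point per gene tested. The 4 called genes are red, Irf5 lies highest among them at 4.44, and dotted lines mark 2-fold.

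The genes next in order of p included further early-response genes. They did not pass the test and were named after their values were seen, so they are given as values. Fosb, an AP-1 subunit of the Fos family, had 2.65, 4.05 and 2.83 CPM in the libraries labelled Irf5-/-, against 1.03, 1.10 and 0.941 CPM in wild type, a log2 fold change of 1.62 ± 0.30 (adjusted p = 0.0538). Its groups did not overlap, at levels that rest on few reads. Osm, which encodes the IL-6 family cytokine oncostatin M, had 171, 208 and 166 CPM in the libraries labelled Irf5-/-, against 85.6, 89.5 and 112 CPM in wild type (log2 fold change 0.92 ± 0.18, adjusted p = 0.107). Hist1h1c, a linker histone gene, had 210, 201 and 191 CPM in the libraries labelled Irf5-/-, against 92.8, 124 and 129 CPM in wild type (0.80 ± 0.17, adjusted p = 0.176). None of these pairs of groups overlapped. Plk3, a stress-responsive kinase gene, had 22.01, 37.5 and 28.8 CPM in the libraries labelled Irf5-/-, against 14.7, 21.1 and 15.6 CPM in wild type, and replicate 1 labelled Irf5-/- came within 1 CPM of wild-type replicate 2. Its adjusted p was 0.292 here, 0.0374 with DESeq2 and 0.0443 without replicate 1 labelled Irf5-/-.

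Not overlapping is a weak criterion on its own. The 3 and 3 libraries did not overlap in 790 genes, or 6.65% of those tested, of which 386 were higher and 404 lower in the libraries labelled Irf5-/-. Egr2, a relative of Egr1, stood at 24.7, 29.9 and 24.3 CPM in the libraries labelled Irf5-/-, against 15.3, 16.8 and 17.6 CPM in wild type. Fos, another AP-1 subunit, stood at 47.8, 45.5 and 29.8 CPM in the libraries labelled Irf5-/-, against 13.7, 9.65 and 23.2 CPM in wild type, a log2 fold change of 1.42 with a wide 95% interval of 0.56 to 2.27. Btg2, an antiproliferative immediate early gene, and Zfp36, which encodes the mRNA-decay factor tristetraprolin, were likewise without overlap and uncalled, at log2 fold changes of 0.64 ± 0.16 and 0.90 ± 0.25.

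Over the whole list of 26 immediate early genes tested, 2 were called (Egr1 and Dusp1) and 7 were higher at an unadjusted p under 0.05, namely these 2 with Egr2, Fos, Fosb, Ier2 and Dusp6, and none was lower. Over all 11885 genes tested, 4 were called, and 104 were higher and 69 lower at that unadjusted level. The list was chosen with earlier results of these data known. The list's median log2 fold change was 0.06, beside -0.00483 over all genes tested, with values from -0.401 (Klf4) to 2.20 (Egr1). For 17 of the 26 the 95% interval lay within 2-fold. Junb, an abundant AP-1 subunit, had 437, 345 and 205 CPM in the libraries labelled Irf5-/-, against 244, 283 and 419 CPM in wild type. Those groups overlapped fully, and the 95% interval of its log2 fold change ran from -0.82 to 0.94. The intervals of Nr4a1, an orphan nuclear receptor (-0.42 to 0.41), and of Myc (-0.20 to 0.37) lay within 2-fold of no difference.

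**Figure D3:**
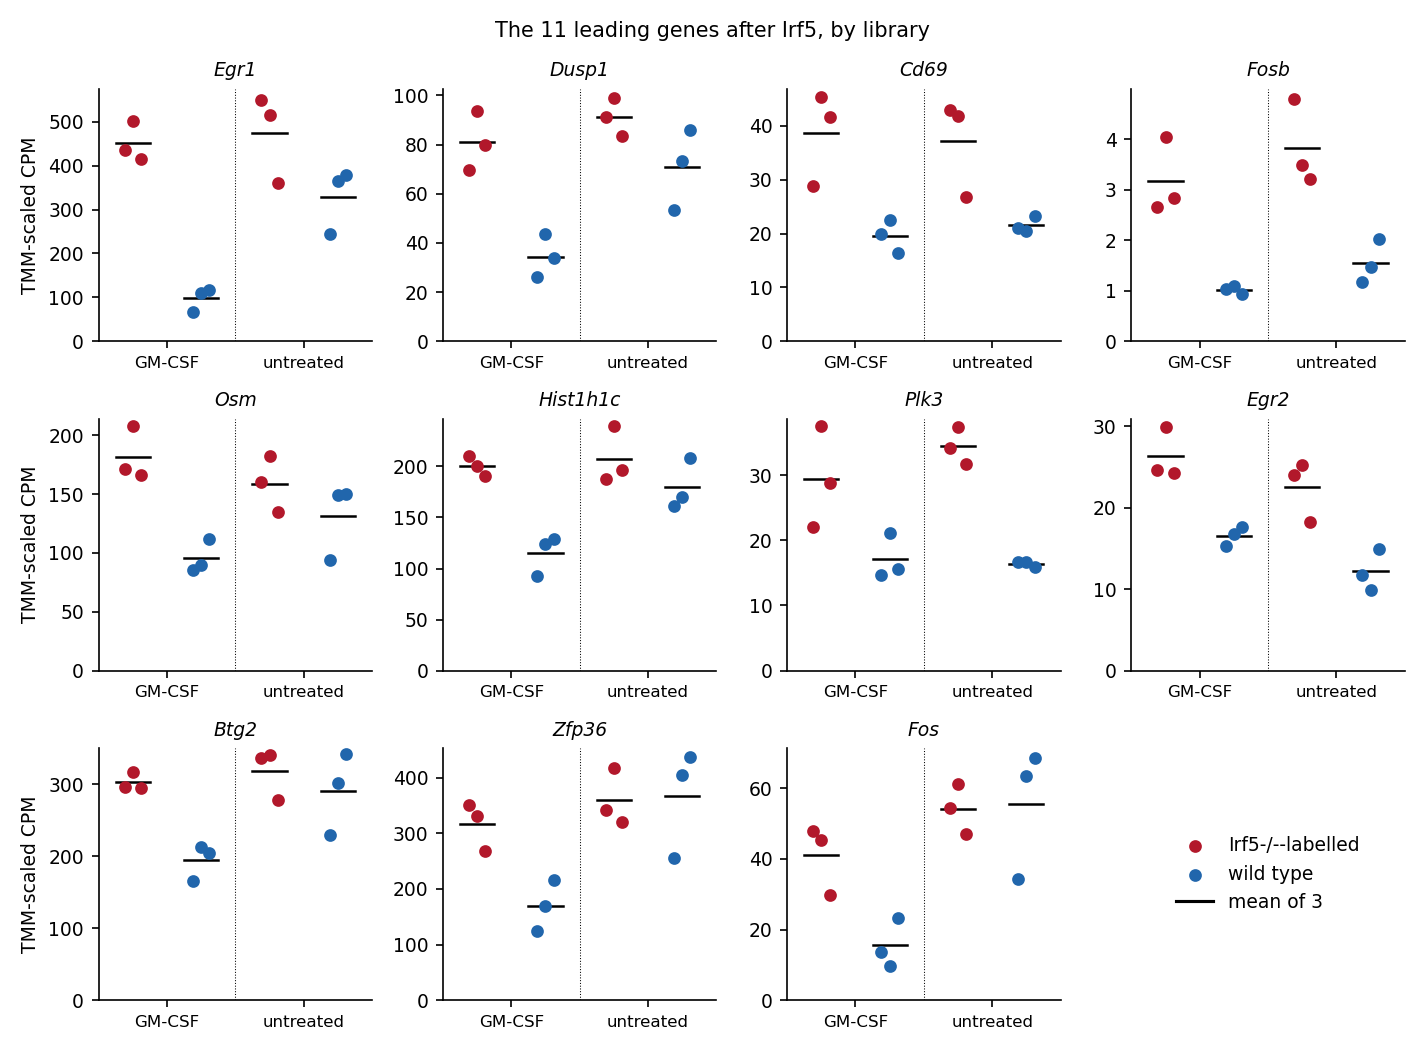
TMM-scaled CPM of 11 genes by library, with GM-CSF on the left of each panel and untreated on the right, red for libraries labelled Irf5-/- and blue for wild type, and a bar at the mean of 3. With GM-CSF the red points lie above the blue ones in all 11 panels, while untreated they overlap in several, such as Fos and Zfp36.

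Promoter sequence was sought for Irf5, Dusp1, Cd69, Fosb, Osm, Hist1h1c, Plk3, Egr2, Btg2, Zfp36 and Fos, with Egr1 not among them. This set does not follow the order of p throughout. Snx10, Ltbp2, Aebp1 and Dgki had smaller unadjusted p-values in edgeR (0.00074 to 0.0010) than Zfp36 (0.0019) and Fos (0.0026), and were not included. RefSeq promoter windows on GRCm38.p6 were matched for 8 of these 11 genes, which leaves Cd69, Osm and Hist1h1c, so of the 4 called genes the search covers Irf5 and Dusp1. The 8 were matched by symbol (Irf5, Dusp1, Fosb, Plk3, Egr2, Btg2, Zfp36 and Fos), and the 250 bases before each RefSeq start were searched on both strands. Gene spans in this text come from GENCODE, and the Dusp1 window lies inside the longer span given for Dusp1 above. The motifs were TGACG, the core of the cAMP response element bound by CREB and ATF factors, the CArG box bound by serum response factor, and GAAANNGAAA, the interferon-stimulated response element recognised by IRF proteins. TGACG was found for 6 of the 8 genes (Dusp1, Fosb, Plk3, Btg2, Fos and, in 3 overlapping windows of its 5, Egr2). Of all 27025 genes with a window 19.8% held it in at least 1, and 17.8% of the 32851 windows did. A CArG box was found for Egr2 and Zfp36, beside 1.62% of all genes (1.47% of windows), and GAAANNGAAA for none of the 8, beside 3.46% of genes (2.98% of windows). Egr2, Btg2, Zfp36 and Fos were picked as early-response genes, so the shares over all genes are no like-for-like comparison for these 8. A match is a description of these letters and says nothing of binding. Below stand the windows of Irf5 (chr6:29526375-29526624, plus strand), which held none of the motifs, of Dusp1 (chr17:26508473-26508722, minus strand), with TGACG matches from bases 60, 108 and 111 counted from the 5′ end, the last pair overlapping on opposite strands, and of Fosb (chr7:19310046-19310295, minus strand), with 1 match from base 191. They are shown because they are the called gene with the largest difference and a called and an uncalled early-response gene. Capitals mark TGACG on either strand.
Irf5: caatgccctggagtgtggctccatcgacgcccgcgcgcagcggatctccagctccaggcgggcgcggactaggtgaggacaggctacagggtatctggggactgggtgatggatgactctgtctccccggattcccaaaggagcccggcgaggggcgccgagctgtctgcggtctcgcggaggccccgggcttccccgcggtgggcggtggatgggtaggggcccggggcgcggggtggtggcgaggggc
Dusp1: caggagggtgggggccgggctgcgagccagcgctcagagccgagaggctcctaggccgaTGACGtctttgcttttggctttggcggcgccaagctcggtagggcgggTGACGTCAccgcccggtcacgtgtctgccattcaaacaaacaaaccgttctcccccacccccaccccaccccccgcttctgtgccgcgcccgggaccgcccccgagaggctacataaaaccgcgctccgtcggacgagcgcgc
Fosb: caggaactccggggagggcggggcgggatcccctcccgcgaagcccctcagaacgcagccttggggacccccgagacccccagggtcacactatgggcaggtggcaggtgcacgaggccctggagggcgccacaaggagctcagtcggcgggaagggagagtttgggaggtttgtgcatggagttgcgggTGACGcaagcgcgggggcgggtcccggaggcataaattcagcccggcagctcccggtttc

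The untreated groups show whether the difference was there without GM-CSF, in libraries that the comparison above did not use, though the labels do not say whether cultures were shared between treatments. By number, replicates 1, 2 and 3 labelled Irf5-/- had Y-linked sums of 178, 12.1 and 39.3 CPM untreated, near the 163, 13.2 and 44.0 CPM with GM-CSF. Their collagen sums, 0.160, 44.0 and 19.3 CPM untreated, kept the same order as with GM-CSF. Untreated wild type had Y-linked sums of 173, 58.2 and 52.7 CPM, of which the second lay well below the 176 CPM of replicate 2 with GM-CSF, and collagen sums of 0.196, 4.13 and 5.83 CPM. The tests treat all libraries as independent, and whether cultures were shared was not tested. Egr1 stood at 551, 515 and 361 CPM in untreated libraries labelled Irf5-/-, against 244, 364 and 378 CPM in untreated wild type. Those groups overlapped, and the untreated log2 fold change of 0.53 ± 0.21 did not pass the test (adjusted p = 0.309). Egr1 was about as high with GM-CSF as untreated in libraries labelled Irf5-/-, at means of 451 ± 46.2 and 476 ± 101 CPM, whereas wild type averaged 98.2 ± 27.1 CPM with GM-CSF and 329 ± 73.7 CPM untreated (SD, n = 3 each). The genotype difference with GM-CSF exceeded the untreated one by 1.67 ± 0.30 on the log2 scale (95% interval 1.04 to 2.29). This difference of effects had an adjusted p of 0.194 with edgeR and 0.000717 with DESeq2.

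Over all genes, edgeR called 0 (0%) for the difference between the effects with GM-CSF and untreated, with 375 at an unadjusted p under 0.05, and DESeq2 called 1, Egr1. Dusp1 had 91.2, 99.0 and 83.4 CPM in untreated libraries labelled Irf5-/-, against 53.3, 73.5 and 85.8 CPM in untreated wild type. Its difference of effects was 0.87 with a 95% interval of 0.33 to 1.41 (edgeR, unadjusted p = 0.00309, adjusted p = 0.987). Egr1, Dusp1 and Cd69 were picked by the GM-CSF contrast, whose libraries enter this difference, so their differences of effects may be overstated. Cd69 had 43.0, 41.9 and 26.8 CPM in untreated libraries labelled Irf5-/-, against 21.0, 20.5 and 23.3 CPM in untreated wild type. Its untreated groups did not overlap either, and its difference of effects was 0.21 with an interval of -0.31 to 0.72, so the test does not show whether the Cd69 difference varied with GM-CSF. Irf5 had a difference of effects of -0.51 with an interval of -0.98 to -0.04.

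The cells labelled Csf2ra-/- give a further reading of the called genes beside the same wild-type libraries. With GM-CSF, Egr1 stood at 370, 391 and 493 CPM under the Csf2ra-/- label, beside 67.3, 110 and 118 CPM in wild type. Dusp1 stood at 74.6, 78.9 and 79.4 CPM and Cd69 at 37.8, 32.4 and 37.8 CPM under that label with GM-CSF. The values of these 3 genes thus lay above all 3 wild-type libraries with GM-CSF under either label. Both readings share the wild-type libraries, so they are not independent, and the libraries of the 2 labels were not tested against each other. Without GM-CSF, cells labelled Csf2ra-/- averaged 392 ± 99.8 CPM of Egr1, 79.8 ± 3.35 CPM of Dusp1 and 38.5 ± 1.80 CPM of Cd69 (SD, n = 3). Wild-type cells given GM-CSF with IL-10 had 138, 132 and 162 CPM of Egr1.

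In untreated cells edgeR called 4 genes (0.0337%), Irf5 and Plk3 higher and Rab7b and Bmt2 lower. At an unadjusted p under 0.05 in edgeR there were 1668 genes untreated, against 173 with GM-CSF. Plk3 had 34.1, 37.4 and 31.7 CPM in untreated libraries labelled Irf5-/-, against 16.7, 16.6 and 15.9 CPM in untreated wild type, a log2 fold change of 1.07 ± 0.18 (adjusted p = 0.0192). Rab7b, a small GTPase of late endosomes, had 1.28, 2.54 and 1.96 CPM in untreated libraries labelled Irf5-/-, against 5.55, 6.72 and 6.28 CPM in untreated wild type. With GM-CSF the same gene had 2.25, 2.70 and 2.40 CPM in libraries labelled Irf5-/- and 2.51, 2.80 and 3.04 CPM in wild type. The untreated count depended on the fit: DESeq2 called 23 genes, a fit of those groups alone called 562, and the leave-one-out fits called 1 to 8.

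**Figure D4:**
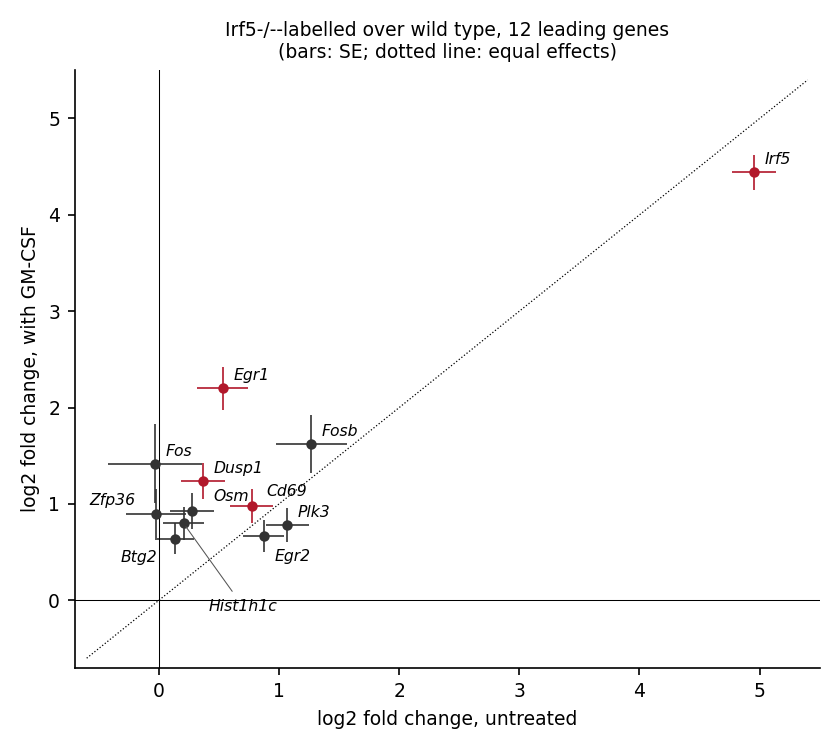
Log2 fold change of libraries labelled Irf5-/- over wild type, with GM-CSF on the vertical axis and untreated on the horizontal. Bars are 1 SE. The genes are Irf5 and 11 others, Egr1, Dusp1, Cd69, Fosb, Osm, Hist1h1c, Plk3, Egr2, Btg2, Zfp36 and Fos. Irf5 lies at 4.44 with GM-CSF and 4.95 untreated, and Egr1 lies furthest above the dotted line of equal effects.

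Genes that IRF5 is known to drive in other myeloid cells were not called. Of 15 cytokine genes linked to IRF5, 9 could be tested, 0 were called by edgeR and 1 by DESeq2 (Osm, above), and 1 (Osm) was higher at an unadjusted p under 0.05. The list's median log2 fold change was -0.11. Tnf stood at 45.1, 42.8 and 39.1 CPM in the libraries labelled Irf5-/-, against 45.6, 49.0 and 36.4 CPM in wild type, and the 95% interval of its log2 fold change ran from -0.29 to 0.20. Il1b stood at 9.88, 8.02 and 8.50 CPM in the libraries labelled Irf5-/-, against 15.7, 11.2 and 8.32 CPM in wild type, with an interval of -1.05 to 0.21. Those groups overlapped, and a 2-fold lower level lies within the Il1b interval but not within that of Tnf. Il1a, lowest of the list, stood at 1.61, 3.49 and 3.20 CPM in the libraries labelled Irf5-/-, against 5.49, 7.29 and 1.95 CPM in wild type. Its groups overlapped too, and its log2 fold change was -0.84 with an interval of -1.77 to 0.09. Il6, at 8.19, 13.9 and 12.3 CPM in the libraries labelled Irf5-/- and 8.92, 11.4 and 6.80 CPM in wild type, had an interval of -0.13 to 0.80. The IL-12 and interferon genes were below the count filter: Il12b had 2 counts over the 3 libraries labelled Irf5-/- and 2 over the 3 wild-type ones, Il12a had 12 and 8, and Ifnb1 had 0 in all 6.

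The remaining IRF genes gave no call either. Of 12 genes in the list, which holds the IRF factors and their binding partners, all were tested and only Irf5 was called. Irf8, a regulator of monocyte and dendritic lineages, had 15.2, 6.11 and 4.14 CPM in the libraries labelled Irf5-/-, against 6.86, 6.03 and 9.26 CPM in wild type. Irf4, a factor of lymphocyte and dendritic cell differentiation, had 21.9, 11.99 and 13.0 CPM in the libraries labelled Irf5-/-, against 21.6, 11.6 and 19.9 CPM in wild type. For both genes replicates spread more than the groups differed. None of 35 tested genes of the Toll-like receptor and MyD88 pathway upstream of IRF5 was called by edgeR or DESeq2 or passed an unadjusted p of 0.05, and for 31 of them the 95% interval lay within 2-fold. Myd88 stood at 63.4, 63.5 and 67.9 CPM in the libraries labelled Irf5-/-, against 61.6, 80.2 and 57.7 CPM in wild type.

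Of 31 interferon-stimulated genes tested, 0 were called by edgeR or DESeq2 and 0 passed an unadjusted p of 0.05. Their median log2 fold change was 0.02, and 25 had intervals within 2-fold. Ifitm1, the most abundant of those named, had 1424, 1594 and 1560 CPM in the libraries labelled Irf5-/-, against 1535, 1392 and 1503 CPM in wild type. Ifit1, Ifit3 and Cxcl9 were among those with too few counts to test. So was Cxcl10, with 11 counts over the 3 libraries labelled Irf5-/- and 39 over the 3 wild-type ones, 23 of them in wild-type replicate 1. Ifit2, also untested, lay the other way with 19 and 12.

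**Figure D5:**
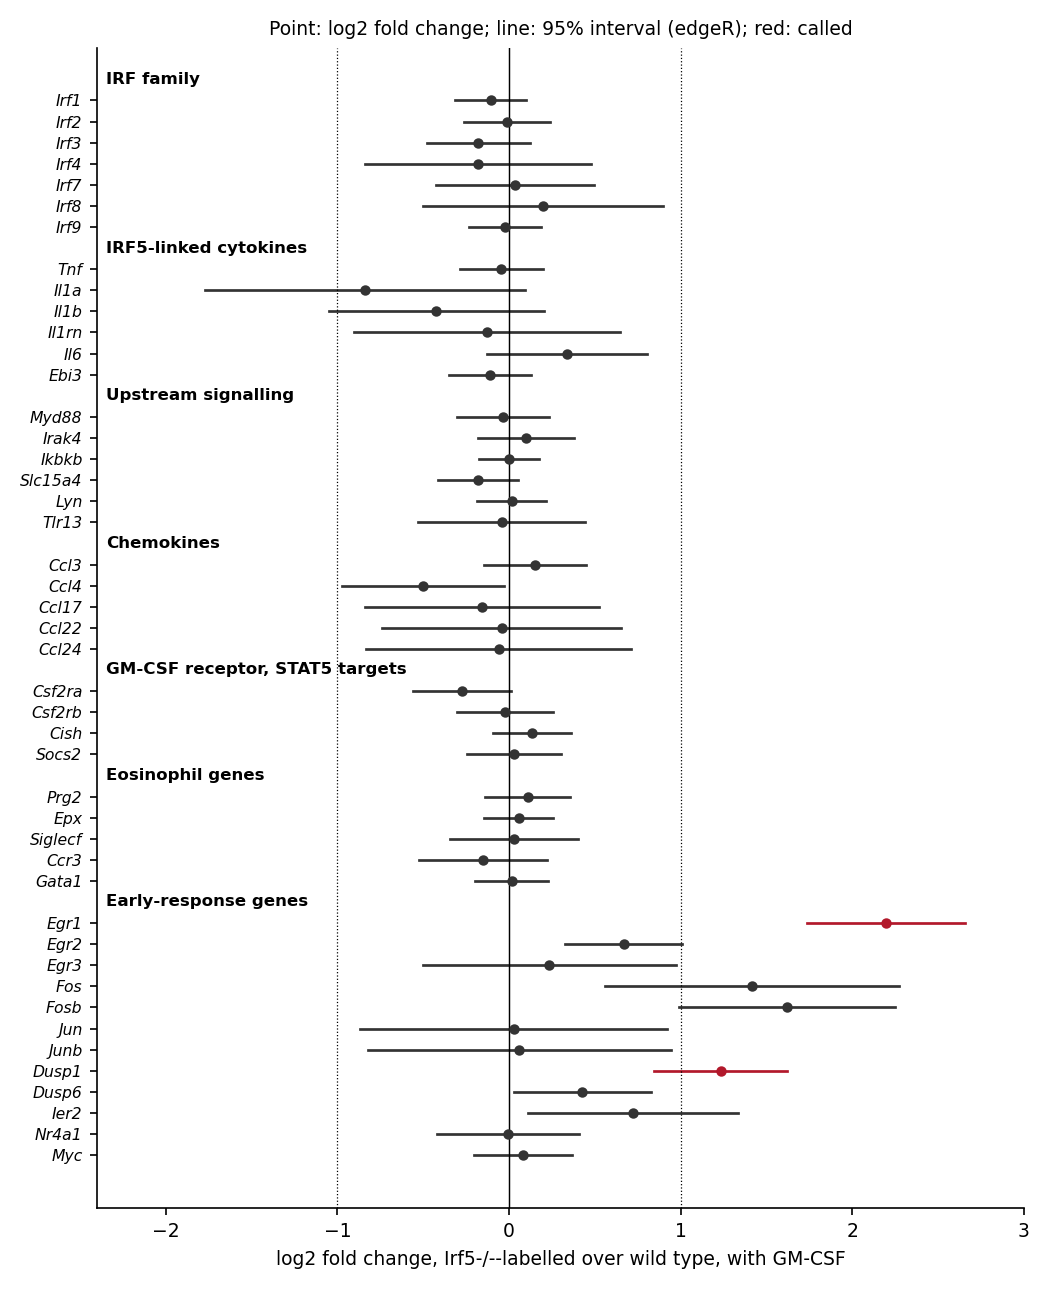
Log2 fold change of libraries labelled Irf5-/- over wild type, both with GM-CSF, as points with 95% intervals from edgeR for named genes in 7 groups. Egr1 and Dusp1 are red because they were called, and dotted lines mark 2-fold.

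Of 25 tested genes of the GM-CSF, IL-3 and IL-5 receptors and STAT5 signalling, edgeR called 0 and DESeq2 called 1 (Osm), 1 was higher at an unadjusted p under 0.05, and 24 had intervals within 2-fold. The beta chain gene Csf2rb had a 95% interval of -0.30 to 0.26, and the STAT5 target genes Cish and Socs2, which encode feedback inhibitors of cytokine receptors, had intervals of -0.09 to 0.36 and -0.25 to 0.31. Cish stood at 379, 419 and 385 CPM in the libraries labelled Irf5-/-, against 324, 393 and 364 CPM in wild type. Csf2ra stood at 55.4, 69.4 and 54.5 CPM in the libraries labelled Irf5-/-, against 58.7, 83.8 and 74.0 CPM in wild type, groups that overlapped. Of 15 chemokine genes tested, 0 were called by edgeR or DESeq2 and 1 was lower at an unadjusted p under 0.05. That gene, Ccl4, had 40.4, 28.3 and 29.9 CPM in the libraries labelled Irf5-/-, against 56.0, 41.6 and 41.9 CPM in wild type (log2 fold change -0.50 ± 0.23, adjusted p = 1.00). Ccl17, a ligand of CCR4, spread from 79.4 to 193 CPM in the libraries labelled Irf5-/- and from 79.6 to 174 CPM in wild type, with an interval of -0.84 to 0.52.

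No eosinophil identity or motility gene was called. Of 25 eosinophil granule and lineage genes tested, 0 were called by edgeR or DESeq2, 0 passed an unadjusted p of 0.05, and 24 had intervals within 2-fold. Siglecf, the eosinophil surface lectin, had 286, 372 and 392 CPM in the libraries labelled Irf5-/-, against 309, 421 and 300 CPM in wild type. Dock2, a Rac activator of leukocyte migration, is of interest because some mouse stocks with an Irf5 deletion were found to carry a Dock2 mutation as well, and the labels do not name the stock. It stood at 233, 251 and 283 CPM in the libraries labelled Irf5-/-, against 256, 278 and 230 CPM in wild type, with an interval of -0.29 to 0.31. All 30 genes of the list of DOCK2, Rac and actin motility were tested with 0 called by either tool, and all 30 intervals lay within 2-fold. Gene-level counts would not show a change in splicing or a point mutation.

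Called members were found in 2 of the 35 gene lists, and the other 33 held 0 by edgeR. In the 27 of those with at least 10 genes tested, median log2 fold changes ran from -0.13 in monocyte and macrophage markers to 0.17 in mast cell and basophil markers. Of the 6 shorter lists, 3 lay outside that range: the stromal and endothelial markers at 3.01 over 7 genes tested, the T and NK cell markers at 0.19 over 5, and the Y-linked genes at -0.93 over 4. Cell cycle and DNA replication genes had a median of 0.10 over 32 genes tested, all with intervals within 2-fold, and ribosome biogenesis genes 0.04 over 24, also all within 2-fold. MHC class II presentation genes had a median of -0.09 over 15 genes, of which 12 had intervals within 2-fold, and hypoxia and glycolysis genes -0.08 over 31, of which 27 did. None of the genes in these last 4 lists passed an unadjusted p of 0.05 or was called by DESeq2.

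Collagen and matrix genes had large fold changes at low levels. Col1a2 stood at 0.482, 11.3 and 4.94 CPM in the libraries labelled Irf5-/-, against 0, 0 and 1.23 CPM in wild type. Sparc, a matrix glycoprotein gene, stood at 0.241, 6.35 and 4.07 CPM in the libraries labelled Irf5-/-, against 0.114, 0 and 0.796 CPM in wild type. In both genes replicates 2 and 3 labelled Irf5-/- were high and replicate 1 was not, the groups overlapped, and neither passed the test. The matrix genes Aebp1, Ltbp2 and Bgn had larger log2 fold changes, of 5.88, 5.32 and 4.56, and were not called either. Aebp1 stood at 0.803, 6.51 and 1.45 CPM in the libraries labelled Irf5-/-, against 0, 0 and 0.145 CPM in wild type. Its groups did not overlap, as in 6.65% of all genes tested, and its adjusted p was 0.883. Of 13 stromal and endothelial markers, 7 were tested and 0 were called by edgeR or DESeq2, with Lum at 0 in all 6 libraries. At an unadjusted p under 0.05, 4 of the 7 were higher, beside 104 of 11885 over all genes. In bulk RNA, fewer cells of a type and less RNA per cell cannot be told apart. The part of these transcripts in the differences above was not tested beyond the covariate and the fit with replicate 1 as the only library labelled Irf5-/-. That library also had a higher Y-linked sum than replicates 2 and 3 (163 against 13.2 and 44.0 CPM), so the fit cannot tell collagen and Y-linked levels apart.

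The data bound most genes closely. The median standard error of a log2 fold change was 0.157, and for 10375 genes (87.3%) the 95% interval lay within 2-fold in either direction. Among the 9398 genes with a mean of at least 5 CPM that share was 98.3%, and 7 of them had a fold change of at least 2 in either direction. They were Irf5, Egr1, Dusp1 and Fos, higher, and Scand1, Uty and Ddx3y, lower, of which the last 2 are Y-linked. Of the 162 genes at 2-fold or more over all levels, 155 had a mean under 5 CPM, where a few reads set the fold.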

How the data were processed

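Libraries were made from total RNA with a stranded mRNA kit, per the labels' protocols. The deposited files, 1 a library, give raw counts by Ensembl gene, per the file headers. The submitters' processing notes name STAR, featureCounts and GRCm38.p6, without versions. The strand setting is not given in the sources used here. The files list 25746 genes, of which 34 had no symbol in GENCODE mouse release M21 and held 0.0189% of counts, and 0 columns of values were left unused. Replicate numbers follow the order of deposit and pair nothing.

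Counts were TMM-scaled (factors 0.939 to 1.031) in edgeR 4.0.16 on R 4.3.3, and filterByExpr kept 11885 genes. One mean per group was fitted to all 24 libraries with the robust quasi-likelihood method (common biological coefficient of variation 14.1%), so the other groups add to the estimate of spread. The GM-CSF contrast, the untreated contrast and their difference were tested, with Benjamini-Hochberg adjustment over all genes and a call at an adjusted p under 0.05. Standard errors and 95% intervals were derived from the F statistic. The fits were checked on simulated data. Alternatives were DESeq2 1.42.0, limma-voom 3.58.1, other scaling and filters, a Y-linked covariate, the groups compared alone and leaving out each library. The collagen covariate and the fit with only replicate 1 labelled Irf5-/- were added after seeing the data.

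Named genes were Irf5, the IRF family, up to 12 called genes per direction with no overlap and a mean of at least 5 CPM, and up to 3 called members per list. The other genes named were chosen after their values were seen. The comparison and the 35 gene lists were chosen with earlier results of these data known. Within each of the 2 groups with GM-CSF compared here, no 2 libraries were alike within counting noise, and the other groups were not checked for this. Depth was 12278558 to 18295944 counts in the 6 libraries, and intervals cover the spread between libraries.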

Additional observations from a re-analysis of the deposited data

How the results depend on the processing

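Irf5 and Egr1 were called higher in all 15 alternatives, with log2 fold changes of 4.29 to 4.71 and 1.99 to 2.35. The count of 4 calls with GM-CSF, all higher, was 8 with DESeq2, 2 with only the groups compared, 2 with only replicate 1 labelled Irf5-/-, and 2 to 5 when 1 library was left out. Median-ratio scaling and no filter gave 4, a stricter filter 5 (with Fosb), limma-voom and the Y-linked and collagen covariates 3. Those calling 8, 5 and 4 included the main 4. Untreated, the 4 calls became 23 with DESeq2, 9 without a filter, 562 with only the groups compared and 1 to 8 leaving out 1 library. The count of 0 for the difference of effects was 1 with DESeq2. The cause of these shifts was not tested, apart from fewer samples in the fits of part of the libraries. Irf5, Egr1, Dusp1, Cd69, Fosb, Osm, Hist1h1c, Plk3, Egr2, Btg2, Zfp36 and Fos did not change sign under any alternative. Of the 71 uncalled named genes, 40 did. No paired analysis was possible because the replicate numbers follow the order of deposit and the labels pair no libraries; the likeness of same-numbered libraries labelled Irf5-/- across treatments is in the data, not the labels. The 3 libraries a group and the low counts of Il12b, Ifnb1 and Ifit1 limit what can be seen, and the conflict between the label and the counts of Irf5 could not be settled from counts per gene.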
